A study of Danio rerio with 17 samples.

Results

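Microglia, the resident macrophages of the brain, and the leukocytes that reach it with the blood were followed through 5 genes, lcp1, coro1a, cd74b, lgals9l1 and lyz, which 6 probe sets of the array measure. The 5 genes are among 8793 genes with a symbol of their own on the array. They were chosen by symbol after higher levels of several of them had been seen in domoic acid (DA) brains at 48 h, so every value of a 48 h group is given here as a description without a test.

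The brains came from wild-type AB strain zebrafish injected into the body cavity at 1 year of age. Treated fish received DA, a diatom toxin that activates ionotropic glutamate receptors, at 1.1 ± 0.2 µg per g of fish in PBS, and vehicle fish received the same volume of PBS. The 6 groups were vehicle and DA brains at 24 h, at 48 h and at 168 h, with 3 arrays per group except for 2 arrays of vehicle brains at 48 h. Each array held RNA of 3 to 4 pooled brains, so the spread between arrays is a spread between pools, and all groups share the injection, the strain and the whole brain as tissue.

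Microglia keep watch over neurons with moving processes, engulf dying cells and present antigen, while neutrophils and macrophages of the blood enter nervous tissue after injury. Levels of leukocyte genes in whole brain depend on how many such cells are there and on how much of each transcript a cell holds, and arrays of bulk RNA cannot tell these apart. The levels are log2 values, on which a difference of 1 is a doubling.

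The arrays resembled each other, with Pearson correlations of 0.970 to 0.997 across probe sets. The 17 blank tag probe sets of the array, which match no zebrafish transcript, averaged 5.74 on DA replicate 1 at 24 h and 4.94 to 5.18 on the other arrays. The 3′ probes of GAPDH exceeded its 5′ probes by 4.63 on vehicle replicate 3 at 24 h and by at most 3.70 on any other array, a measure of RNA length. Hybridisation spike-ins averaged 10.8 and 9.70 on the vehicle arrays at 48 h and 9.27 to 9.40 on the DA arrays at 48 h. Neuronal transcripts were abundant on all arrays, where 8 neuronal genes averaged 11.6 to 12.0. The 17 genes listed for retina, lens and pineal averaged 6.85 on DA replicate 1 at 24 h and 5.52 to 6.26 on the other arrays.

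The probe sets stood at different heights above the blanks, which limits what each can show. The cd74b probe set exceeded all 17 blanks on every array. The lcp1 probe set exceeded at least 16 of the 17, and the lyz probe set exceeded 13 to 16. The first coro1a probe set exceeded 8 to 17 blanks, and the lgals9l1 probe set exceeded 0 to 16. The second coro1a probe set lay below the median blank on every array, between 4.30 and 4.72, so it gives no usable reading of coro1a.

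**Figure D1:**
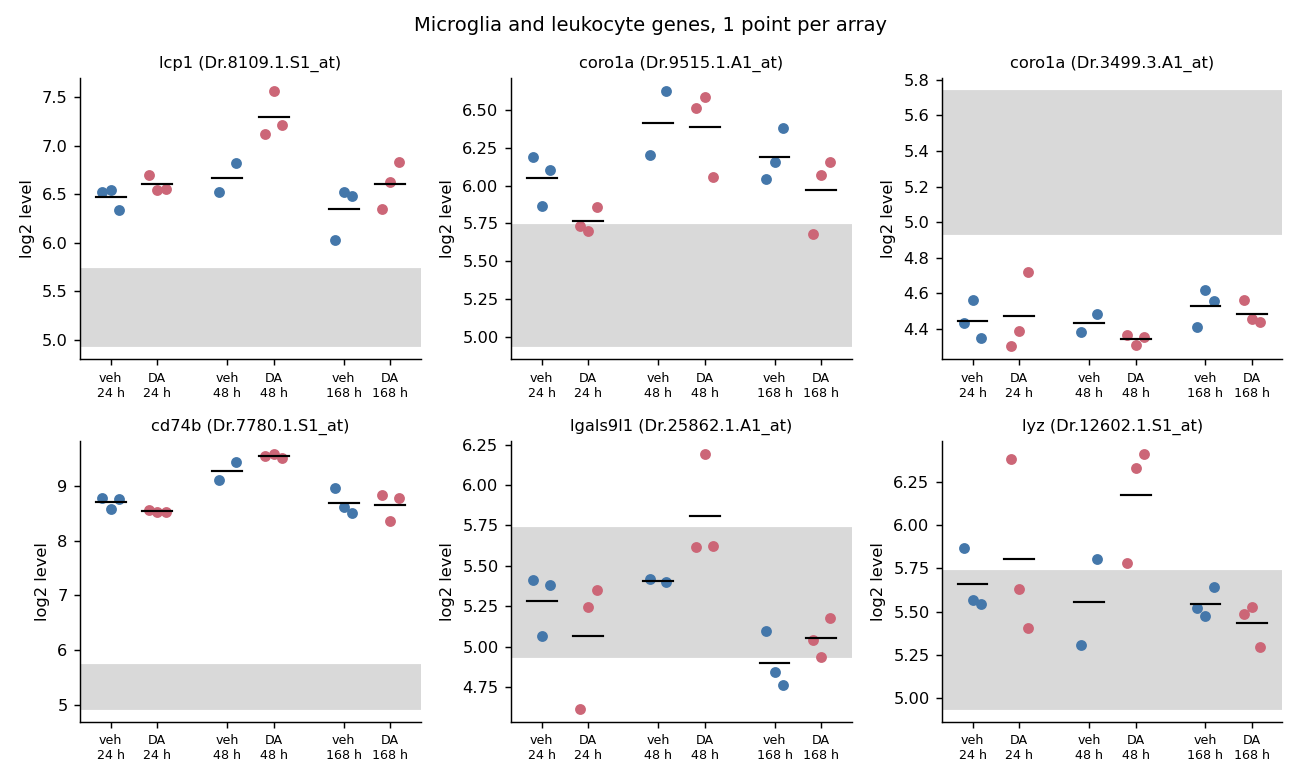
Log2 level of each probe set of the 5 genes (y axis) in vehicle (blue) and DA (red) brains at each time (x axis), with 1 point per array and a black line at the group mean. The grey band spans the array means of the blank probe sets, 4.94 to 5.74. The lcp1, cd74b and lgals9l1 points of the DA brains at 48 h lie above all other points of their panels, as in 1.46% of all probe sets. The genes were chosen with 48 h values known. The second coro1a probe set lies below the band.

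The cytoskeletal genes are described first. lcp1 encodes L-plastin, a protein that bundles actin filaments and marks leukocytes of all kinds in zebrafish. Its level in DA brains at 48 h was 7.12, 7.56 and 7.21. In vehicle brains at 48 h it was 6.53 and 6.82. All 12 arrays of the other times lay between 6.03 and 6.83, so each of the 3 DA arrays at 48 h stood above all 14 other arrays. The same was so for 1.46% of all probe sets.

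The lcp1 group means ran from 7.30 ± 0.23 (SD, n = 3) in DA brains at 48 h down to 6.35 ± 0.28 (SD, n = 3) in vehicle brains at 168 h. Between these came vehicle brains at 48 h at 6.67 ± 0.21 (SD, n = 2), DA brains at 168 h and at 24 h, both at 6.60, and vehicle brains at 24 h at 6.47. Below the DA brains at 48 h, neighbours in this order overlapped, except that the 3 DA arrays at 24 h (6.70, 6.55 and 6.56) lay just above the 3 vehicle arrays (6.53, 6.55 and 6.34). DA minus vehicle at 48 h was 0.63 (SE 0.17), a 1.54-fold difference.

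coro1a encodes coronin 1A, an actin regulator of leukocytes that is used to label them in live zebrafish. In the usable probe set, vehicle brains at 48 h read 6.21 and 6.62, and DA brains at 48 h read 6.52, 6.59 and 6.05. These groups overlapped, and their difference was -0.03 (SE 0.18). The mean level was lowest in DA brains at 24 h, at 5.73, 5.70 and 5.85, just below the vehicle brains of that time at 6.19, 5.86 and 6.1.

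The coro1a group means ran from 6.41 ± 0.30 (SD, n = 2) in vehicle brains at 48 h through 6.39, 6.19, 6.05 and 5.97 to 5.76 ± 0.08 (SD, n = 3) in DA brains at 24 h. Each pair of neighbours in this order overlapped. Of the actin genes, lcp1 thus separated DA from vehicle arrays at 48 h and coro1a did not. The difference between the genes was not tested, because the 48 h values chose the genes.

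cd74b encodes a zebrafish copy of the invariant chain, which holds MHC class II molecules until they are loaded with peptide and is made by microglia, macrophages and B cells. In vehicle brains at 48 h its level was 9.11 and 9.43, and in DA brains at 48 h it was 9.54, 9.58 and 9.50. The 12 arrays of the other times lay between 8.35 and 8.95. All 5 arrays at 48 h, vehicle and DA alike, therefore stood above all 12 others, as did 0.748% of all probe sets.

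The order of the cd74b group means was 9.54 ± 0.04 (SD, n = 3) in DA and 9.27 ± 0.22 (SD, n = 2) in vehicle brains at 48 h, followed by 8.70, 8.68, 8.65 and 8.53. The last 4 means belong to vehicle brains at 24 h and 168 h and to DA brains at 168 h and 24 h, and neighbours among them overlapped. DA minus vehicle was 0.27 (SE 0.15) at 48 h. Vehicle brains at 48 h exceeded the mean of the other vehicle brains by 0.58 (SE 0.14).

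lgals9l1 encodes a protein like galectin 9, a lectin that binds galactose-bearing sugars, and is listed here among the genes of microglia and macrophages. Its level in DA brains at 48 h was 5.61, 6.19 and 5.62, and in vehicle brains at 48 h it was 5.42 and 5.40. Vehicle brains read 5.41, 5.06 and 5.38 at 24 h and 5.09, 4.84 and 4.76 at 168 h. DA brains read 4.61, 5.24 and 5.35 at 24 h and 5.04, 4.93 and 5.18 at 168 h. The 3 DA arrays at 48 h were above all others, as in 1.46% of all probe sets. Yet on every array the gene read below the brightest blank, which was at 6.28 to 6.94.

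The lgals9l1 means fell in the order of DA brains at 48 h (5.81 ± 0.33, SD, n = 3), vehicle brains at 48 h (5.41), vehicle brains at 24 h (5.28), DA brains at 24 h (5.07), DA brains at 168 h (5.05) and vehicle brains at 168 h (4.90). All neighbours below the DA brains at 48 h overlapped. DA minus vehicle at 48 h was 0.40 (SE 0.21), of which 1 pool carried much: without DA replicate 2 the difference was 0.21. A fit that also included the level of the spike-ins gave 0.19.

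lyz encodes lysozyme, an enzyme that cleaves bacterial cell walls and in zebrafish is made by neutrophils and by some macrophages. DA brains at 48 h read 5.78, 6.33 and 6.41, and vehicle brains read 5.31 and 5.81. The groups overlapped by 1 array each. DA replicate 1 at 24 h, the array with bright blanks, read 6.38, against 5.63 and 5.40 for the other DA brains of that time.

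The remaining lyz values were flat, at 5.87, 5.57 and 5.55 in vehicle brains at 24 h, 5.52, 5.47 and 5.64 in vehicle brains at 168 h and 5.49, 5.53 and 5.29 in DA brains at 168 h. The group means ran from 6.18 ± 0.34 (SD, n = 3) in DA brains at 48 h through 5.81 in DA and 5.66 in vehicle brains at 24 h to 5.56, 5.55 and 5.43 in the last groups. Neighbours in this order overlapped throughout. DA minus vehicle at 48 h was 0.62 (SE 0.24), and it depended on the 2 vehicle arrays: it was 0.37 without vehicle replicate 1 and 0.87 without vehicle replicate 2.

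**Figure D2:**
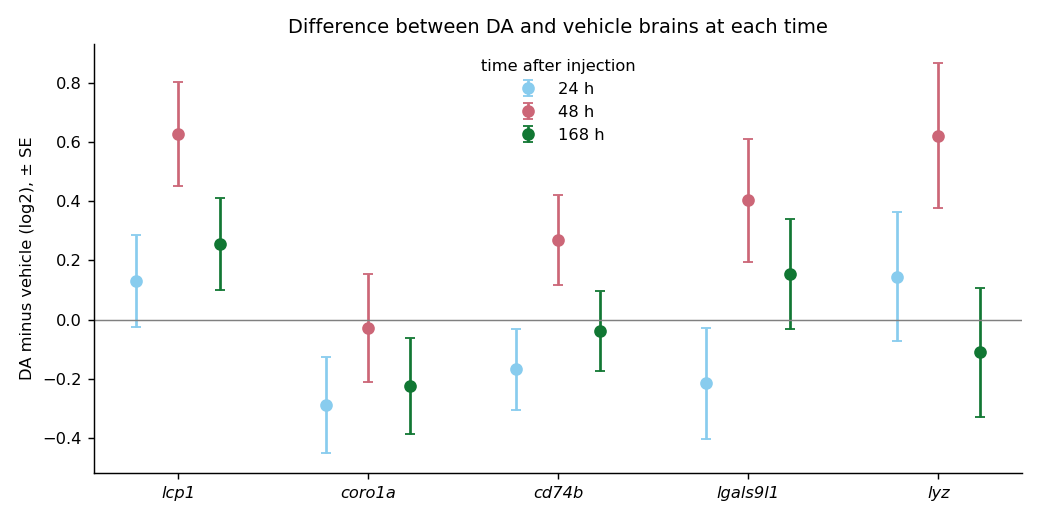
Difference between DA and vehicle brains on the log2 scale (y axis) for each gene, read by its probe set that exceeded the median blank on most or all arrays (x axis), at 24 h (light blue), 48 h (red) and 168 h (green). Points are differences of group means and bars are the SE of the fit over all 17 arrays. The 48 h points of lcp1 and lyz are highest, at 0.63 and 0.62, and that of coro1a is at -0.03.

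Side by side at 48 h, DA minus vehicle was 0.63 for lcp1, 0.62 for lyz, 0.40 for lgals9l1, 0.27 for cd74b and -0.03 for coro1a. DA and vehicle arrays did not overlap for lcp1, cd74b and lgals9l1, all higher in DA, as was so for 13.3% of all probe sets in that direction. The second coro1a probe set, below the median blank, lay lower in DA without overlap, as did 14.0% of all probe sets. Since these values chose the genes, nothing is read from these counts. Leaving out vehicle replicate 1 lowered the cd74b difference from 0.27 to 0.11, and leaving out vehicle replicate 2 raised it to 0.43. For coro1a, a fit that also included the level of the spike-ins gave -0.32. Of all 15502 probe sets, 0% passed an adjusted p of 0.05 at 48 h in limma, and 734 had an unadjusted p under that value.

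The comparison of DA with vehicle at 24 h did not enter the choice of the genes and was tested. None of the 6 probe sets passed, against 0.0323% of all probe sets, and none had an unadjusted p under 0.05. The coro1a difference was -0.29 (SE 0.16, 95% interval -0.64 to 0.06, limma adjusted p = 0.457), lower in 3 of 3 DA pools than in all vehicle pools. The cd74b difference was -0.17 (SE 0.14, 95% interval -0.46 to 0.12, limma adjusted p = 0.604), also lower in 3 of 3. The lcp1 difference was 0.13 (SE 0.16, 95% interval -0.20 to 0.46, limma adjusted p = 0.735), higher in 3 of 3. Groups without overlap were found for 4.86% of all probe sets in the higher and 7.92% in the lower direction.

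For lgals9l1 and lyz, the 24 h differences rested on DA replicate 1. The lgals9l1 difference was -0.22 (SE 0.19, limma adjusted p = 0.628) and 0.011 without that array. The lyz difference was 0.14 (SE 0.22, limma adjusted p = 0.796) and -0.14 without it. The intervals, -0.61 to 0.18 and -0.32 to 0.61, leave room for changes in either direction.

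At 168 h, DA and vehicle arrays overlapped for all 6 probe sets, while 3.85% of all probe sets stood apart in the higher and 7.02% in the lower direction. None of the 6 passed, as none of the 15502 did in limma (0%), where 468 had an unadjusted p under 0.05. The differences were 0.26 for lcp1 (95% interval -0.08 to 0.59), 0.15 for lgals9l1 (-0.24 to 0.55), -0.04 for cd74b (-0.33 to 0.25), -0.11 for lyz (-0.57 to 0.35) and -0.22 for coro1a (-0.57 to 0.12). The limma adjusted p was 0.9985 for each.

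Time alone was compared between 168 h and 24 h, apart from the 48 h arrays. Among vehicle brains, lgals9l1 differed by -0.39 (SE 0.19, 95% interval -0.78 to 0.01, limma adjusted p = 0.463). The other vehicle differences lay between -0.12 for lcp1 and 0.14 for coro1a. No probe set of the 5 genes passed, against 0.445% of all probe sets. The spike-in levels of the vehicle arrays did not overlap between 24 h and 168 h. A fit that also included the level of the spike-ins gave -0.22 for coro1a in vehicle brains, and 11 instead of 69 probe sets passed. Among DA brains, the differences ran from -0.37 for lyz (limma adjusted p = 0.530) to 0.21 for coro1a, and none passed, against 0.232% of all. In both treatments the 2 times overlapped for all 6 probe sets. They stood apart for 8.97% (later time higher) and 7.66% (lower) of all probe sets in vehicle brains and for 6.13% and 7.48% in DA brains. The change of the DA effect from 24 h to 168 h ran from -0.26 for lyz to 0.37 for lgals9l1, with the lowest limma adjusted p at 0.652, and 0% of all probe sets passed, with 1344 at an unadjusted p under 0.05.

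The 48 h groups were then set against the other times of their own treatment, as a description in which vehicle and DA brains share no array. Vehicle brains at 48 h were higher than the mean of vehicle brains at 24 h and 168 h by 0.58 for cd74b, 0.32 for lgals9l1, 0.29 for coro1a and 0.26 for lcp1, and differed by -0.05 for lyz. DA brains at 48 h were higher than the other DA brains by 0.95 for cd74b, 0.75 for lgals9l1, 0.70 for lcp1, 0.56 for lyz and 0.52 for coro1a. Against the mean of the other times, 4 of the 5 genes thus stood higher at 48 h in both treatments, beside 35.0% of all genes. The exception was lyz in vehicle brains. Since 48 h values chose the genes, nothing is read from this count. For lcp1, coro1a and lgals9l1 the vehicle arrays at 48 h overlapped those of the other times.

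**Figure D3:**
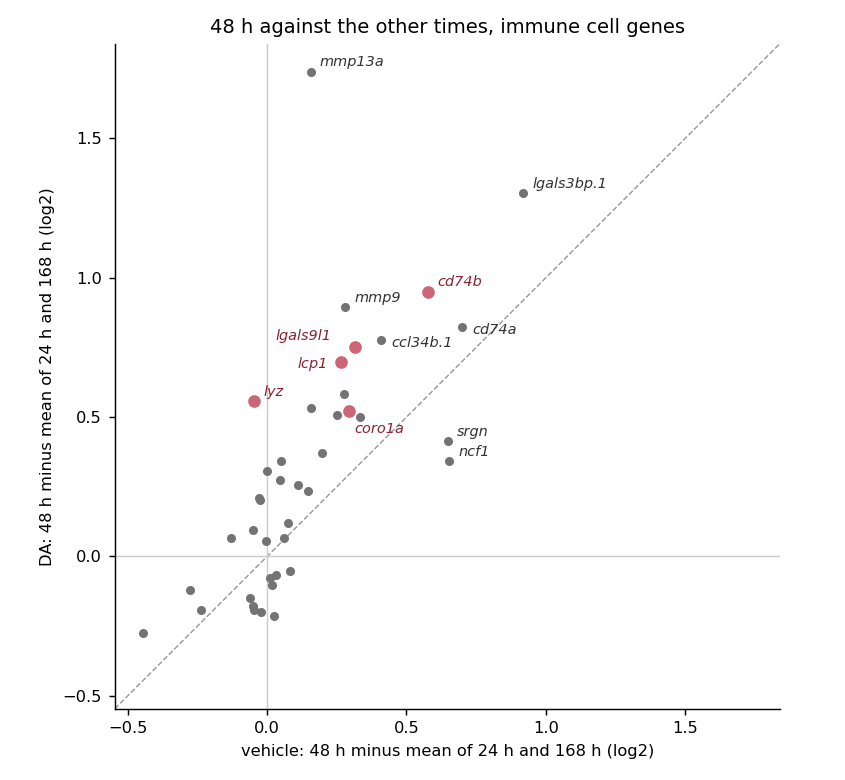
Level at 48 h minus the mean level at 24 h and 168 h, on the log2 scale, in vehicle brains (x axis) and in DA brains (y axis), for 41 genes of immune cells. The 5 chosen genes are red, the others grey, and the dashed line marks equal differences. The 5 red points lie above the line, mmp13a is highest at 1.74 in DA brains, and srgn and ncf1 lie below the line.

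The array measured 41 genes listed for immune cells, the 5 chosen genes included: 13 of leukocytes in general, 14 of microglia and macrophages, 7 of neutrophils, 2 of MHC class II antigen handling and 5 of lymphocytes. At 48 h, 22 of the 41 were higher than the mean of the other times in both treatments (53.7%), as were 35.0% of all 8793 genes. Without the 5 chosen genes the count was 18 of 36. All 5 arrays at 48 h lay above all 12 others for lgals3bp.1, srgn and cd74a besides cd74b, which were named after their values were seen. These 4 are 9.76% of the 41, and the 3 besides cd74b are 8.33% of the 36, beside 0.921% of all genes. The lists too were chosen with earlier results of these data known, so these shares are a description and were not tested.

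The partner of cd74b, cd74a, which encodes the other copy of the invariant chain, read 11.4 and 11.9 in vehicle brains and 11.4 to 11.5 in DA brains at 48 h. At the other times it read 10.2 to 11.1. The copies shared the height at 48 h. DA minus vehicle at 48 h was -0.17 (SE 0.17) for cd74a and 0.27 (SE 0.15) for cd74b, but the sign for cd74a rested on 1 array, and without vehicle replicate 2 the value was 0.078. lgals3bp.1, a gene for a galectin-binding protein that zebrafish microglia express, was higher at 48 h by 0.92 in vehicle brains and by 1.3 in DA brains.

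Between DA and vehicle brains at 48 h, 25 of the 41 genes were higher in DA (61.0%), beside 55.2% of all genes, and the median difference was 0.13 beside 0.02. Without the 5 chosen genes it was 21 of 36 (58.3%). By cell type, 12 of 14 microglia and macrophage genes, 5 of 7 neutrophil genes, 6 of 13 general leukocyte genes, 1 of 2 MHC class II genes and 1 of 5 lymphocyte genes were higher in DA. The 12 include the chosen gene lgals9l1, and slc7a7, whose probe set exceeded the median blank on 0 of the 17 arrays. The csf1ra probe set, among those lower, also lay at blank level. Dim probe sets were found in other lists too. Among the 6 general leukocyte genes higher in DA, ptprc, btk and cxcr4b exceeded the median blank on 7, 7 and 5 arrays. The neutrophil gene alox5ap, higher in DA, did so on 3 arrays, and the lymphocyte gene cd28, lower in DA, on 1. The counts by cell type were not tested. The DA arrays at 48 h lay above every other array for 9 of the 41 genes, beside 2.12% of all genes and 1.46% of all probe sets. The chosen genes among the 9 were picked with these values known, so the count with them included is not read. The other 6 are 16.7% of the 36 genes without the chosen ones. They are ptprc, lgals3bp.1, grna, ctsc, mmp9 and mmp13a, which were named after their values were seen. The lists too were chosen with earlier results of these data known, so this share is a description and was not tested.

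mmp13a and mmp9 encode secreted proteases that cut collagen and other matrix and are made by inflammatory cells, among others. mmp13a read 7.64, 7.36 and 8.57 in DA brains at 48 h, 5.91 and 7.11 in vehicle brains at 48 h, and 6.02 to 6.90 at the other times. Its difference at 48 h was 1.34 (SE 0.33), and the DA arrays lay above every other array. The vehicle arrays at 48 h set its size, which was 0.745 without vehicle replicate 1 and 1.94 without vehicle replicate 2. mmp9 differed by 0.53 (SE 0.23) at 48 h and by 0.34 without vehicle replicate 1.

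ctsc encodes cathepsin C, a lysosomal protease that activates the serine proteases of myeloid cells, and ptprc encodes CD45, a phosphatase on the surface of leukocytes. ctsc read 6.61, 6.82 and 6.51 in DA brains at 48 h, 6.35 and 6.24 in vehicle brains at 48 h and 5.76 to 6.31 at the other times. Its difference at 48 h was 0.35 (SE 0.16). ptprc read 4.50 to 5.27 over all arrays and exceeded the median blank on 7 of the 17, so its place above is at background level and no difference is given.

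Other leukocyte genes did not share this order. Among them, mpx, the myeloperoxidase of neutrophils, differed by -0.10 (SE 0.34). srgn, a proteoglycan of immune cell granules, and ncf1, a subunit of the NADPH oxidase of phagocytes, differed between DA and vehicle brains at 48 h by -0.34 (SE 0.15) and -0.36 (SE 0.17). csf1ra, a receptor that microglia need to survive, gave no usable reading, since its probe set lay below the mean of the blanks on all 17 arrays. Among the 7 neutrophil genes, lyz and mpx thus differed by 0.62 (SE 0.24) and -0.10 (SE 0.34) in the same arrays. Of the 7, 5 were higher in DA at 48 h.

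**Figure D4:**
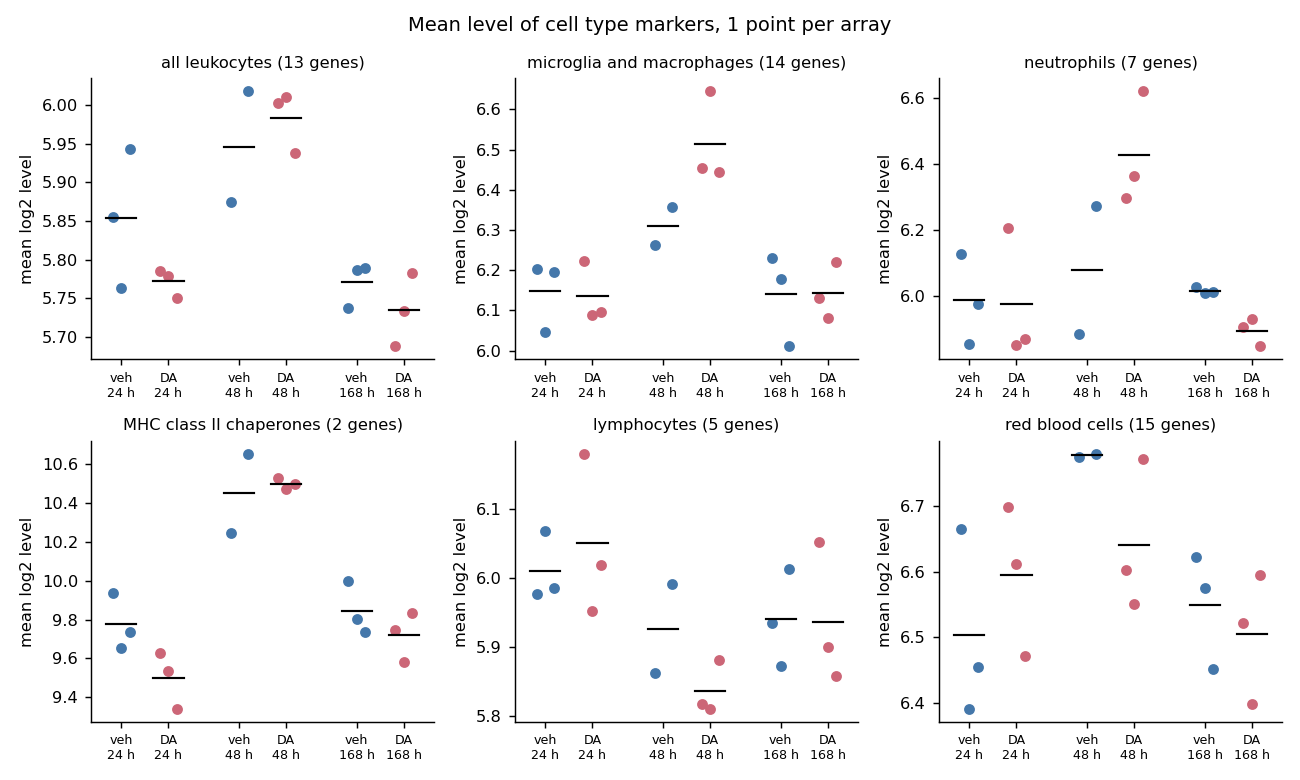
Mean log2 level (y axis) of the genes listed for a cell type in each group (x axis), with 1 point per array, vehicle in blue, DA in red and the group mean as a black line. The general leukocyte, microglia and macrophage, neutrophil and MHC class II means include chosen genes, which were picked with 48 h values known. Microglia and macrophage genes averaged 6.44 to 6.65 in DA and 6.26 to 6.36 in vehicle brains at 48 h and 6.01 to 6.23 at the other times. General leukocyte genes overlapped at 48 h, at 5.94 to 6.01 in DA and 5.87 to 6.02 in vehicle brains. Red blood cell genes averaged 6.78 on both vehicle arrays at 48 h.

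Markers of other cells were read on the same arrays. The 15 red blood cell genes averaged 6.78 on both vehicle arrays at 48 h, 6.55 to 6.77 on the DA arrays at 48 h and 6.39 to 6.70 on the arrays of the other times, so that the vehicle arrays at 48 h stood apart and the DA arrays did not. Of these 15, 11 were higher at 48 h than the mean of the other times in vehicle brains. Between treatments at 48 h, 5 of the 15 were higher in DA than in vehicle brains. The 9 radial glia genes averaged 10.8 to 10.9 at 48 h and 10.5 to 10.9 at the other times, and 7 oligodendrocyte genes averaged 9.68 to 10.0 at 48 h and 9.47 to 9.75 at the other times. The 9 endothelial genes averaged 5.80 to 5.96 at 48 h and 5.69 to 5.997 at the other times. These 3 lists overlapped between 48 h and the other times. The radial glia list did so only through vehicle replicate 1 at 24 h (10.91). The oligodendrocyte list did so only through vehicle replicate 1 at 48 h (9.68). All 9 radial glia genes were higher at 48 h than the mean of the other times in both treatments. So were 6 of 7 oligodendrocyte genes in each treatment, and 7 of 9 endothelial genes in vehicle and 4 in DA brains. The shares of all genes were 49.0% in vehicle and 53.7% in DA brains. The part of blood and of other cells in the 48 h levels of the 5 genes was not tested.

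In the comparisons without 48 h arrays, none of the 41 immune cell genes passed in limma. At 24 h, 17 of 41 were higher in DA (41.5%, beside 52.3% of all genes), with a median difference of -0.04 beside 0.01 for all genes. An unadjusted p under 0.05 was found for 4 of the 41 (9.76%), a lower share than the 13.4% of all genes. Among these were rag2, a recombinase subunit of lymphocyte precursors, at 0.38, gata3, a transcription factor of T cells and of neurons, at -0.41, and cd74a at -0.38. The limma adjusted p-values of these 3 genes lay between 0.248 and 0.293. The rag2 difference rested largely on DA replicate 1, the array with bright blanks. It read 6.05, against 5.41 and 5.45 in the other DA brains and 5.10, 5.42 and 5.25 in vehicle brains.

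At 168 h, 16 of 41 were higher in DA (39.0%, beside 43.5% of all genes), with a median of -0.03 beside -0.02 for all genes. The unadjusted p was under 0.05 for 2 of the 41 (4.88%), beside 3.12% of all genes. Among these was rag1, the partner of rag2, at -0.18 in a probe set that read 4.80 to 5.20, around the level of the blanks. Microglia and macrophage genes divided evenly, 7 higher and 7 lower, at 24 h and again at 168 h.

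Between 168 h and 24 h, 15 of 41 were higher at the later time in vehicle brains (36.6%, beside 53.3% of all genes) and 21 of 41 in DA brains (51.2%, beside 47.3%). The unadjusted p was under 0.05 for 3 of the 41 in vehicle brains (7.32%, beside 12.2% of all genes) and for 8 in DA brains (19.5%, beside 11.9%). In vehicle brains these were cebp1, a transcription factor of myeloid cells in zebrafish, at 0.49, ncf1 at -0.60 and gata3 at -0.42, with limma adjusted p-values of 0.220, 0.110 and 0.240. In DA brains they included cebp1 at 0.37, ccl34b.1, a chemokine of zebrafish microglia, at 0.46, ncf1 at -0.40 and alox5ap, a protein of leukotriene synthesis, at -0.29. The limma adjusted p-values of these genes were 0.414, 0.416, 0.365 and 0.274. The alox5ap probe set exceeded the median blank on 3 of the 17 arrays. Without DA replicate 1 at 24 h, cebp1 passed in vehicle brains (limma adjusted p = 0.0215) and in DA brains (0.0347), and ncf1 passed in vehicle brains (0.0473). The cebp1 probe set is of a kind that can bind related transcripts.

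The 5 genes did not vary as a unit from pool to pool. Taking each array's deviation from its group mean over 17 arrays, lcp1 and coro1a had a Pearson r of 0.59 (Spearman 0.63), lcp1 and lyz 0.35, cd74b and lgals9l1 0.35, and lcp1 and cd74b -0.25. Without DA replicate 1 at 24 h, r was 0.54 for cd74b and lgals9l1, and for lgals9l1 and lyz it went from -0.39 to 0.15. These are descriptions of pools that share processing and arrays. The lyz and lgals9l1 deviations followed the blank level through DA replicate 1 at 24 h. The coro1a deviations had a Pearson r of -0.56 with the spike-in level and cd74b had one of 0.64 with the mean of the other microglia and macrophage genes and 0.50 with that of the red blood cell genes. For lgals9l1 the r with the other microglia and macrophage genes was 0.20, and 0.85 without DA replicate 1 at 24 h. For lcp1 and coro1a it was 0.24 each, and for lyz 0.45, or 0.15 without that array. With the mean of the other general leukocyte genes, r was -0.06 for lcp1, 0.39 for coro1a and 0.42 for cd74b. It was 0.13 for lgals9l1 and 0.06 for lyz.

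Among 8658 genes searched, the deviations most like those of lgals9l1 were those of ctsc, with a Pearson r of 0.91 over 17 arrays and 0.86 without DA replicate 1 at 24 h, followed by znf410 and wu:fi37e09, both at 0.87. For cd74b they were those of uchl3 at 0.94, thyn1 at 0.84 and ndufb6 at 0.84. For lcp1 they were those of ilvbl at 0.84, exosc6 at 0.81 and rpl7l1 at 0.81. For coro1a they were those of nol12 at 0.84, pop4 at 0.81 and ak3 at 0.81. For lyz they were those of setd4 at 0.89, inppl1b at 0.88 and si:ch211-209a2.2 at 0.87, which were 0.77, 0.75 and 0.80 without DA replicate 1 at 24 h. The top 1% of the genes searched began at an r of 0.60 for lcp1, 0.63 for coro1a, 0.68 for cd74b, 0.74 for lgals9l1 and 0.78 for lyz. The values given are the highest of each search, and none was tested. Of these 15 genes, ctsc is the only member of the immune cell lists.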

How the data were processed

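Total RNA of pooled brains was hybridised to the Affymetrix Zebrafish Genome array. The authors deposited 1 log2 value per probe set and array. The tools named in the submitters' processing notes are oligo, RMA and limma, without versions. RMA makes arrays alike in distribution, so a change shared by most transcripts is removed.

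Of 15617 probe sets, 115 were manufacturer controls, and the other 15502 all entered the tests, dim ones included. Symbols were brought up to date by Entrez number for 10711 of 10795 probe sets with 1 symbol, and 135 carried several and 4572 none. A gene was read by its probe set of highest mean, and the 5 genes by every probe set. One linear model over the 17 arrays, with a mean for each group, was fitted in limma 3.58.1 (R 4.3.3). It had 11 residual and 4.39 prior degrees of freedom, a median residual SD of 0.16, and Benjamini-Hochberg adjustment at 0.05. Arrays give no counts, so their number limits the precision. The labels do not tie replicate numbers to shared animals, and p-values measure the spread between pools.

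The genes and lists were chosen with earlier results of these data known. In each immune list and tested comparison, up to 2 genes in each direction, those of lowest unadjusted p, could be named where none passed, and for each of the 5 genes the 3 genes of most similar deviations. Promoters were not analysed here. One general leukocyte gene that the naming rule gave, with lower p-values at 24 h and 168 h than the immune cell genes named there, is not reported here. Alternatives were other normalizations, a filter on dim probe sets, variance models, array weights, quality measures as covariates, the replicate block, fewer groups and leaving out arrays. Counts of immune cell genes higher at 48 h, the values of nfkbiab under these and those of cd74a, mmp13a, mmp9 and ctsc with 1 array of 48 h left out were added after seeing the data. The procedure was tested on simulated data.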

Additional observations from a re-analysis of the deposited data

Results flagged for a closer look

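For cd74b, every DA array lay below every vehicle array at 24 h, with a difference of -0.17 on the log2 scale, and every DA array lay above every vehicle array at 48 h, with a difference of 0.27. Groups stood apart in these directions for 7.92% and 13.3% of all probe sets. At 24 h the highest DA array was at 8.563 and the lowest vehicle array at 8.566, and the 48 h difference ran from 0.11 to 0.43 with 1 array left out. Opposite directions at 2 times drew attention to it. The difference between the times was not tested, because the 48 h values were used in choosing the gene. The groups hold 3 DA arrays each, and 3 and 2 vehicle arrays.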

How the results depend on the processing

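None of the 6 probe sets passed in any tested comparison under the 29 alternatives run for each, and the count of probe sets higher in DA at 48 h, 4 of 6, moved to 2 where a filter on dim probe sets left only lcp1 and cd74b, and ranged from 4 to 5 with 1 array left out. The count of the 41 immune cell genes higher in DA at 48 h, 25, ranged from 23 to 29 with 1 array left out. The count of immune cell genes that passed between 168 h and 24 h in vehicle brains, 0, became 2 with the blank level in the model (ncf1 and cebp1) and 1 without both DA replicate 1 and vehicle replicate 3 of 24 h (cebp1), and ranged from 0 to 2 with 1 array left out (2 without DA replicate 1 at 24 h). In DA brains, 0 became 1 (cebp1) with array weights, with the blank level in the model and without both arrays, and ranged from 0 to 1 with 1 array left out. The causes were not tested. Over all probe sets, the calls ranged from 0 to 327 at 24 h (main 5), from 6 to 250 between 168 h and 24 h in vehicle brains (main 69), from 2 to 100 in DA brains (main 36) and from 0 to 4 at 48 h (main 0).

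The labels do not say whether replicate numbers pair the samples. Deviations of same-numbered arrays correlated at -0.20, -0.33 and 0.22 at 24 h, -0.0089 and 0.013 at 48 h and 0.18, 0.029 and -0.13 at 168 h. As deviations from means of 2 or 3 arrays, these values cannot decide it. With the replicate block, 0 of the 6 probe sets and 0 immune cell genes passed in the tested comparisons, the lcp1 difference at 48 h was 0.62, and the calls over all probe sets were 9 at 24 h and 23 between times in DA brains.

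Several differences, none of them past the threshold, changed sign. In the main fit they included -0.26 for the change of the DA effect on lyz and -0.22 for lgals9l1 at 24 h. With array weights, lyz at 24 h became -0.081, cd74b between times in vehicle brains 0.023, the second coro1a probe set between times in DA brains -0.048, and the change of the DA effect became -0.0094 for cd74b and 0.0078 for lyz. With the blank level in the model, lgals9l1 at 24 h became 0.025, lyz -0.13 at 24 h and 0.024 at 168 h, the second coro1a probe set between times in DA brains -0.077, and the change of the DA effect -0.038 for the first coro1a probe set and 0.16 for lyz. Without both doubted 24 h arrays, the 24 h values were 0.058 for lgals9l1 and -0.20 for lyz, cd74b between times in vehicle brains was 0.016, the second coro1a probe set between times in DA brains -0.068 and the change of the DA effect on lyz 0.091. With the spike-in level in the model, the second coro1a probe set was -0.072 at 24 h, -0.071 between times in vehicle brains, -0.035 in DA brains and 0.036 for the change of the DA effect. This model also gave -0.22 for the first coro1a probe set and 0.16 for lyz between times in vehicle brains, and -0.042 for lcp1 in DA brains. With the GAPDH difference in the model, the second coro1a probe set was -0.042 at 24 h and 0.014 for the change of the DA effect, and the first was -0.0063 for that change. Median subtraction gave -0.0052 for the second coro1a probe set at 24 h and 0.0086 for lgals9l1 between times in DA brains. There, quantile normalization and cyclic loess gave 0.012 and 0.040 for lgals9l1 and -0.020 and -0.028 for lcp1.

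With 1 array left out, the 24 h values ranged from -0.36 to 0.011 for lgals9l1, -0.14 to 0.35 for lyz and -0.10 to 0.11 for the second coro1a probe set. The 48 h value of cd74a ranged from -0.42 to 0.078. The 168 h values ranged from -0.13 to 0.11 for cd74b and -0.10 to 0.0016 for the second coro1a probe set. Between times in vehicle brains they ranged from -0.15 to 0.080 for cd74b and -0.21 to 0.037 for lcp1, and in DA brains from -0.068 to 0.14 for the second coro1a probe set, -0.11 to 0.13 for lcp1 and -0.24 to 0.12 for lgals9l1. The change of the DA effect ranged from -0.030 to 0.21 for the first and -0.15 to 0.057 for the second coro1a probe set, -0.46 to 0.033 for lyz and -0.035 to 0.25 for lcp1.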

Other observations

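Genes of antigen display on MHC class I, of complement and of inflammation were read beside the immune cell genes. Among 7 genes of MHC class I display, b2m, which encodes its light chain, read 10.4 in all 3 DA brains at 48 h and 10.3 and 10.1 in vehicle brains at 48 h, against 9.39 to 10.2 at the other times. The other genes of this list did not all follow b2m. Of the 7, 3 were higher at 48 h than the mean of the other times in both treatments (42.9%, beside 35.0% of all genes). Another 2 were lower in both, and 2 differed in direction. In vehicle brains, all 7 complement genes were higher at 48 h than the mean of the other times, beside 49.0% of all genes. In DA brains 5 of the 7 were, beside 53.7%. For cfp the vehicle difference was only 0.006 (SE 0.16). The c3a.1 probe set lay below the mean of the blanks on all 17 arrays. None of these 14 genes passed in the tested comparisons in limma.

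Among 8 inflammation genes, nfkbiab, which encodes an inhibitor of NF-kappa-B, rose from 24 h to 168 h in vehicle brains by 1.32 (SE 0.26, limma adjusted p = 0.0354), higher in 3 of 3 arrays, from 8.42, 8.19 and 7.72 to 9.82, 9.35 and 9.12. The spike-in level of the 6 vehicle arrays compared did not overlap between these times and was lower at 168 h. In DA brains the nfkbiab difference was 0.90 (SE 0.26, limma adjusted p = 0.247). The change passed in 15 of the 29 alternatives run, with differences of 1.06 to 1.69 and adjusted p-values of 0.0143 to 0.196. It did not pass in the other 14. Among these were the fits that left out any 1 of the 6 vehicle arrays compared or DA replicate 2 at 168 h. The fit with the replicate block (limma adjusted p = 0.0565) was also among them. The difference between the treatments was -0.43 (SE 0.37, limma adjusted p = 0.706). socs3a, a feedback inhibitor of cytokine signalling, differed between the same times by 1.12 in vehicle brains and 1.28 in DA brains, with limma adjusted p-values of 0.289 and 0.310. Its relative socs3b differed by -0.48 in vehicle brains (limma adjusted p = 0.278) and 0.11 in DA brains. For nfkbiaa, a relative of nfkbiab, the differences were -0.05 and -0.07. Of the 8 genes, 6 were higher at 168 h in vehicle brains (75%, beside 53.3% of all genes). In DA brains 3 were higher (37.5%, beside 47.3%).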
